A study of Mus musculus with 316 samples.

Results

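Fetal liver haematopoietic stem cells (FL_HSC) made up 94 of the 316 mouse cells whose single-cell RNA profiles were deposited, and they were chosen by their titles, which start with FL_HSC. Polyadenylated RNA of single cells had been sequenced. The other groups, used here as background, were 95 bone marrow-derived haematopoietic stem cells (HSC) taken after engraftment (Eng_BM-HSC), 49 engrafted cells of the HSC label that had been derived from embryonic stem cells (Eng_ES-HSC), and 78 embryonic stem cells (ESC). The series title names Notch activation and the lymphoid potential of stem cell-derived HSC. The labels give the fetal liver cells no strain, embryonic age, litter, sort gate or treatment, and they give no animal or culture for any cell. Each group carried a library identifier of its own, and the effects of group and of library cannot be told apart. Each group therefore counts as 1 sample, and no test between groups or across cells was made.

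Before birth the liver is the main site of blood formation, and HSC multiply there before they seed the bone marrow. Fetal HSC divide more often than adult marrow HSC, and they carry a fetal programme in which the RNA-binding protein Lin28b blocks maturation of let-7 microRNAs, whose targets include Hmga2. Multipotent blood cells are also known for lineage priming, the low expression of genes of several mature blood lineages before a cell commits to any of them.

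Levels are in TPM, a transcript abundance scaled to the library total and corrected for transcript length, so levels of different genes can be set side by side. The deposited levels of an FL_HSC cell summed to between 466192 and 896630 TPM, with a median of 830848, so the cells do not share a common total. They were not rescaled except where stated. Differences are between means of log2(TPM + 1) over cells. A gene counts as detected in a cell when its TPM is at least 1. The 87 FL_HSC cells with at least 1000 detected genes were used and the other 7 were left out. The lowest, median and highest number of genes per kept cell were 1058, 4233 and 8234. No pair of FL_HSC cells correlated above a Pearson r of 0.9, and the highest r between any pair was 0.841. Mitochondrial transcripts took 4.55% to 99.1% of the TPM of a cell, with a median of 9.31%, and exceeded 50% in 14 kept cells. Besides, 20 kept cells, 5 of them over 50% mitochondrial, had a summed spike-in level of at least 1000 TPM. This limit was chosen after the values were seen and falls in no gap, with kept cells at 974 and 1012 TPM on either side. Across the 87 cells, cells with a higher mitochondrial share had fewer genes (Spearman's rho -0.52). TPM keeps no read depth, so the depth per cell is unknown. Shares of cells are given with exact 95% Clopper-Pearson intervals, which reflect only how many cells were counted. For a gene detected in 0 of 87 cells, the limit given is that of 3 cells, or 3.45%. Other kept cells numbered 76 Eng_BM-HSC, 21 Eng_ES-HSC and 77 ESC, with medians of 2585, 1609 and 5433 genes.

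The expressed genes of FL_HSC were led by cytoskeleton, translation, chaperone and chromatin genes. Mitochondrial, ribosomal protein and unnamed or predicted genes were left out of the ranking. Among the rest, the highest mean levels on the log2 scale were those of Actb (cytoplasmic actin), Eef1a1 (a translation elongation factor), Ubb (ubiquitin), Hspa8 (a constitutive heat shock chaperone) and Npm1 (nucleophosmin). Actb averaged 11.73 ± 2.06 in log2(TPM + 1) (SD over 87 cells). Ptma, Hsp90ab1, H3f3b, Stmn1 and Gpx1 followed, and all 10 genes were detected in every kept cell. At least 1 cell detected 13648 of the 21970 mouse genes in the table, 3017 (13.7%) were detected in at least 50% of cells, and 852 (3.88%) in at least 80%. Only 61 genes were detected in all 87 cells, while 1545 were detected in 1 cell only and 8322 in none. Ribosomal protein genes took a median of 14.1% of the TPM.

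Bhlhe41, a basic helix-loop-helix transcription repressor, ranked 15th in the same ranking but was spread unevenly. Its lowest, median and highest levels were 101, 343 and 85141 TPM. It was detected in all kept cells of every group. In FL_HSC its median was 37538 TPM in the 20 cells with high spike-in RNA and 306 TPM in the other 67. Its level had a rho of 0.80 with spike-in TPM and of 0.60 with the mitochondrial share, and the part of either in this level was not tested.

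The label was set beside 5 markers, and 4 of them were detected in most cells. Hmga2, a chromatin-binding protein of the fetal self-renewal programme (chromosome 10, 120361275 to 120476469, GRCm38), was detected in 83 of 87 cells, or 95.4% (88.6% to 98.7%). Its lowest, median and highest levels were 0, 156 and 2332 TPM. Angpt1, a ligand of the Tie2 receptor, was detected in 89.7% of cells (81.3% to 95.2%) with a median of 105 TPM and a maximum of 907 TPM. Mecom, a transcription factor needed for HSC self-renewal, was detected in 72.4% (61.8% to 81.5%) with a median of 17.1 TPM. Hlf, a bZIP transcription factor of immature HSC, was detected in 68.97% (58.1% to 78.5%) with a median of 7.62 TPM. Lin28b was the sparse member. It was detected in 28 cells, or 32.2% (22.6% to 43.1%), its median was 0 TPM and its highest level was 213 TPM. Hmga2 averaged 44.8 TPM in the 14 cells over 50% mitochondrial and 263 TPM in the other 73. The part of the mitochondrial share in this spread was not tested.

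**Figure D1:**
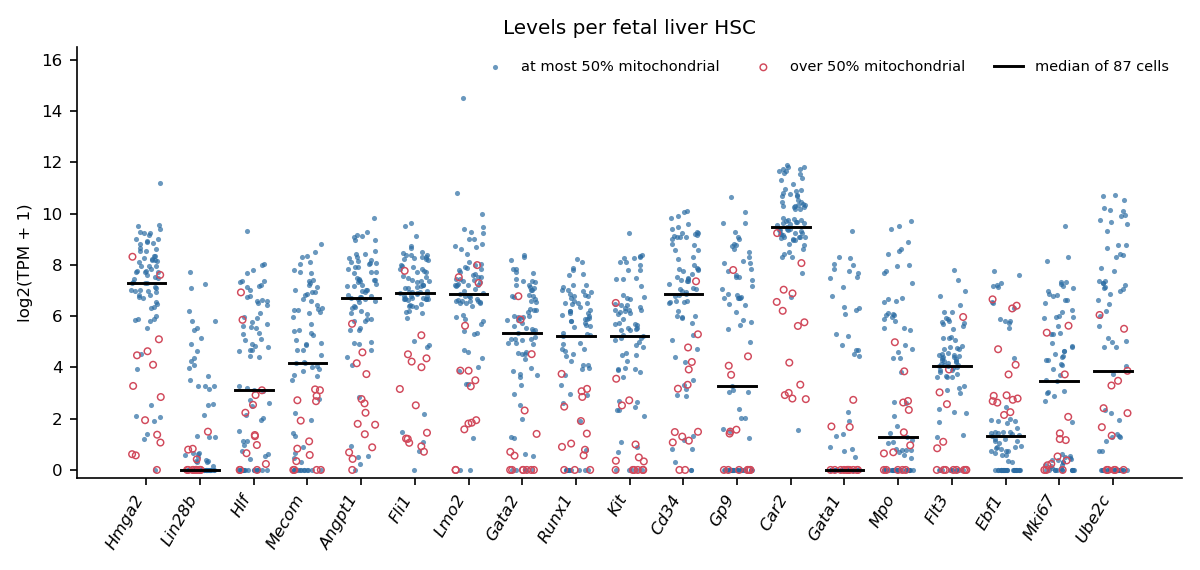
Level of 19 genes in each of the 87 fetal liver HSC, as log2(TPM + 1), with a black line at the median; open red circles are the 14 cells over 50% mitochondrial. Hmga2, Angpt1, Fli1 and Lmo2 are high in most cells with a tail of low ones, both blue and red, while Gata1, Mpo, Gp9 and Lin28b are spread between 0 and high levels.

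Of 24 transcription factors of HSC identity, 15 were detected in at least 50% of cells, a detection rate that 13.7% of all genes reached. Fli1, an ETS factor, and Lmo2, a bridging protein of the haematopoietic transcription complex, were each detected in 95.4% of cells. Myb followed with 87.4%, Hhex with 85.1%, Gata2 with 81.6% and Runx1 with 80.5%. The median level was 117 TPM for Fli1, 116 TPM for Lmo2 and 36.1 TPM for Runx1. A single cell with 23296 TPM held 59.3% of all Lmo2 TPM, so the mean of 451 TPM lay far above the median. At the other end, Bmi1 was detected in 12.6%, Hoxb4 in 4.598% and Prdm16 in 2.30% of cells, although each is known for a role in HSC maintenance.

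Surface proteins and receptors split in the same way, with 14 of 24 in at least 50% of cells. Cd47, the signal that protects cells from phagocytosis, was detected in all 87 cells, with a lowest level of 1.499 TPM, a median of 203 TPM and a highest level of 1435 TPM. Adgrg1, an adhesion receptor, was detected in 95.4%, the sialomucin Cd34 in 91.95% and the stem cell factor receptor Kit in 80.5% of cells. Markers often used to sort HSC were sparser. Slamf1 was detected in 42.5% (31.99% to 53.6%), Procr in 32.2% (22.6% to 43.1%), Ly6a in 26.4% (17.6% to 36.98%) and Thy1 in 3.45% of cells. Ly6a, which encodes Sca-1, was lower in FL_HSC on the log2 scale, with a difference of -2.21 to Eng_BM-HSC, -1.40 to Eng_ES-HSC and -3.89 to ESC.

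Genes of the fetal programme were a mixture of near-universal and rare transcripts, with 6 of 13 in at least 50% of cells. Hmga1, a relative of Hmga2, was detected in 94.3% of cells with a median of 215 TPM. The RNA-binding proteins Igf2bp2, Igf2bp3 and Igf2bp1 were detected in 87.4%, 50.6% and 42.5% of cells. The median of Igf2bp2 was 278 TPM in the 20 cells with high spike-in RNA and 12.8 TPM in the other 67. Mycn was detected in 66.7%, Arid3a in 39.1% and the imprinted growth factor gene Igf2 in 28.7%. Lin28a, Sox17 and Dlk1 were each detected in 2 or 3 of 87 cells. Hmga1 level had a rho of -0.75 with the mitochondrial share and Hmga2 level a rho of -0.31, and the rho between the pair was 0.18 over all 87 cells and -0.13 in the 73 cells with at most 50% mitochondrial transcripts.

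Lineage genes were unevenly detected, with a few members of each list found in many cells and others in none. Among 18 megakaryocyte genes, 4 were detected in at least 50% of cells, among them the platelet glycoprotein gene Gp9, the platelet protein gene Mmrn1 and the tetraspanin gene Cd9. Gp9 was detected in 56 cells, or 64.4% (53.4% to 74.4%), and its lowest, median and highest levels were 0, 8.81 and 1595 TPM. Mmrn1 was detected in 63.2% with a median of 8.76 TPM. The platelet-cargo genes Pf4 and Vwf were detected in 18.4% and 19.5% of cells, and Gp1bb, Gp6, Selp and Clec1b in none. Treml1, a platelet granule receptor, was detected in 33 cells and in no kept cell of the other groups. Its mean of 1835 TPM came from a single cell with 158236 TPM, which held 99.1% of the Treml1 TPM.

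Erythroid genes showed carbonic anhydrase and globin beside a sparse regulator group. Car2 (carbonic anhydrase 2) was detected in all 87 cells, with a median of 713 TPM. Hbb-bt, an adult beta-globin gene (chromosome 7, 103812524 to 103813996), was detected in 85.1% of cells (75.8% to 91.8%) with a lowest, median and highest level of 0, 332 and 8528 TPM. The neighbouring copy Hbb-bs, detected in 44.8%, is nearly identical in sequence, so the division of reads between the pair is uncertain. The erythroid regulators Gata1 and Klf1 were detected in 34.5% (24.6% to 45.4%) and 24.1% (15.6% to 34.5%) of cells, and the erythropoietin receptor Epor in 21.8%. Gata1 was detected in 10 of the 20 cells with high spike-in RNA and in 20 of the other 67. Slc4a1, which encodes the red cell anion exchanger, Alas2, the erythroid haem synthesis enzyme, and the embryonic globins Hbb-bh1 and Hba-x were at 0. Hbb-bt was detected in 10.5% of Eng_BM-HSC, 23.8% of Eng_ES-HSC and 0 of 77 ESC.

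Myeloid detection was concentrated in a few genes. Lyz2 (lysozyme) was detected in 87.4% of cells with a median of 113 TPM, Gstm1 in 58.6%, Mpo (myeloperoxidase) in 54.02% (42.998% to 64.8%) and the G-CSF receptor gene Csf3r in 49.4%. Mpo was detected in 17 of the 20 cells with high spike-in RNA and in 30 of the other 67, and the part of spike-in RNA in this was not tested. The serine protease gene Prtn3 was detected in 20.7% and Irf8, a monocyte and dendritic factor, in 22.99%. Spi1, which encodes PU.1, was detected in 42.5%. Of 14 granulocyte genes 9 were detected in no cell, among them Elane, S100a8, S100a9, Camp and Ngp, and neither was Cebpa. Of 14 monocyte and macrophage genes 7 were detected in no cell. Of 12 mast cell, basophil and eosinophil genes only Cpa3 was detected, in 2 cells.

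Lymphoid genes divided between early regulators and antigen receptor machinery. In the early lymphoid list 4 of 14 genes were detected in at least 50% of cells: Mef2c in 79.3%, Flt3 in 78.2%, Ikzf1 in 64.4% and Tcf4 in 62.1%. Il7r, the interleukin-7 receptor, was detected in 1 cell, and Dntt, Ikzf3 and Rag1 in none. Cd79b, a signalling subunit of the B cell receptor, was detected in 65.5% of cells, Ebf1 in 56.3% and Bank1 in 32.2%, while Cd79a, Igll1, Rag1, Rag2 and Blnk were detected in none. Ebf1 was detected in 19 of the 20 cells with high spike-in RNA, with a median of 78.5 TPM, and in 30 of the other 67, with a median of 0.791 TPM. Its level had a rho of 0.65 with spike-in TPM and of 0.54 with the mitochondrial share. Bank1 was detected in 15 of the 20 cells and in 13 of the other 67. Cd79b was detected in 15 of the 20 cells, with a median of 31.5 TPM, and in 42 of the other 67, with a median of 2.03 TPM. The part of spike-in RNA in these levels was not tested. Ebf1 was also detected in 92.2% of ESC. Of 12 T and NK cell genes none reached 50% of cells. Gata3 was detected in 42.5% and Cd3d in 16.1%, against 40.3% and 62.3% of ESC.

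**Figure D2:**
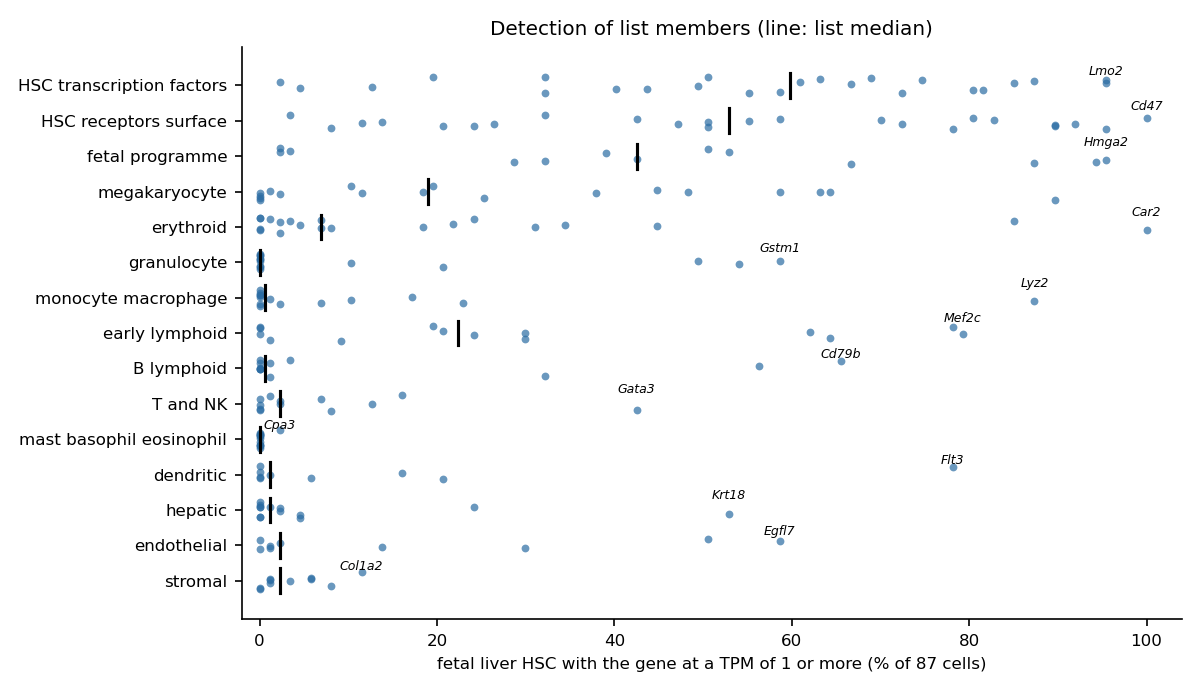
Share of the 87 fetal liver HSC that detected each member of 15 gene lists at a TPM of 1 or more; each point is a gene, the black line is the median of the list, and the gene detected most often is named except in the megakaryocyte list. The HSC lists and the fetal list have medians of 42.5% to 59.8%, the megakaryocyte and early lymphoid lists 18.97% and 22.4%, and the granulocyte list 0%.

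Genes of several lineages were found together in the same cells. With at least 2 detected members taken as a mark of a lineage, 81 of 87 cells were marked as megakaryocyte, 83 as erythroid, 52 as granulocyte, 36 as monocyte, 44 as B lymphoid and 16 as T or NK. Marks of 2 or more lineages were carried by 84 cells, or 96.6% (90.3% to 99.3%). Without members that also stand in the HSC lists or were detected in at least 80% of cells, the number was 70 cells, or 80.5% (70.6% to 88.2%). The number of marks had a rho of 0.29 with genes per cell, and of 0.42 without those members.

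Co-detection by this rule was not particular to fetal liver cells. The share was 73.7% (62.3% to 83.1%) in Eng_BM-HSC, 95.2% (76.2% to 99.9%) in Eng_ES-HSC and 92.2% (83.8% to 97.1%) in ESC, which are not blood cells. Without the shared and widely detected members it was 80.5% in FL_HSC, against 60.5%, 90.5% and 83.1% in Eng_BM-HSC, Eng_ES-HSC and ESC. The lists that made up the marks differed. Without those members, the megakaryocyte mark was carried by 82.8% of FL_HSC, against 46.1% of Eng_BM-HSC, 19.05% of Eng_ES-HSC and 27.3% of ESC. The T and NK mark was carried by 18.4% of FL_HSC, against 36.8%, 57.1% and 71.4%. Granulocyte marks were carried by 59.8% of FL_HSC, against 59.2%, 80.95% and 41.6%. ESC had more genes per cell than FL_HSC and the engrafted groups had fewer, and the part of gene number in these shares was not tested.

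Markers of other liver cells were looked for in the same way. Of 13 hepatocyte genes, Alb, Ttr, Apob, Serpina1a, Ahsg and Krt8 were detected in no cell, and the summed level of the list ran from 0 to 742 TPM per cell with a median of 10.6 TPM. Of the 7 that were detected, Krt18 was found in 52.9% of cells and Trf, which encodes transferrin, in 24.1%. Of 9 endothelial genes, Egfl7 was detected in 58.6%, Emcn in 50.6% and Pecam1 in 29.9%, while Kdr was detected in 2.30% and Stab2 and Cldn5 in none. HSC are known to express Emcn and Pecam1, and Emcn also stands in the surface list. No stromal gene exceeded 11.5% of cells. Of 12 T and NK cell genes 8 were detected in at least 1 cell, and of 14 monocyte and macrophage genes 7. Gata3 and Lyz2 were among those detected, while Cd3e, C1qa and Adgre1 were at 0.

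Cell cycle genes were widely detected and their number differed between cells. Of 25 G1 and S phase genes, 17 were detected in at least 50% of cells, led by the replication helicase subunits Mcm4 and Mcm6 (91.95% each) and by Ccnd2 (90.8%) and Cdk6 (89.7%), a cyclin and a kinase of G1. Of 24 G2 and M phase genes, 17 were detected in at least 50%, led by Cks1b (86.2%), Cdk1 (83.9%), Birc5 (82.8%) and Top2a (81.6%). A cell detected a median of 13 of these 24 genes, with a lowest number of 2 and a highest of 24. In 46 cells (52.9%, 41.9% to 63.7%) at least 12 of them were detected and in 12 cells (13.8%, 7.34% to 22.9%) at most 5. The number had a rho of 0.72 with genes per cell, so cells with few genes also had few cycle genes.

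Mki67, the proliferation marker Ki-67 (chromosome 7, 135689784 to 135716361), was detected in 54 cells, or 62.1% (51.03% to 72.3%), with a lowest, median and highest level of 0, 10.2 and 728 TPM. Ube2c, the ubiquitin-conjugating enzyme of the anaphase-promoting complex, had a median of 13.6 TPM and a maximum of 1685 TPM. Inhibitors were present beside these genes. The CDK inhibitor gene Cdkn2d was detected in 66.7% of cells, and Cdkn1c, which encodes the CDK inhibitor p57, in 59.8%. Cdkn1b was detected in 45.98% and Cdkn1a in 14.9%, while Cdkn2a and Cdkn2c were at 0. Trp53, which encodes p53 and is not a CDK inhibitor, was detected in 98.9% with a median of 368 TPM.

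The G2 and M phase genes also had the highest median rho of the lists, though not the highest median partial rho. Over their 276 pairs the median Spearman's rho across the 87 cells was 0.49, against 0.14 over 24440536 pairs of the 6992 genes detected in at least 20% of cells (31.8% of genes). The cells share 1 library and all genes share the gene number of a cell. Taking out genes per cell gave a median partial rho of 0.31 for the list, against 0.34 for heat shock genes and 0.02 for all pairs. Mki67 with Ube2c had a rho of 0.72, Mki67 with Top2a 0.71 and Mki67 with Kif11, a spindle motor, 0.70. In the 73 cells with at most 50% mitochondrial transcripts these were 0.72, 0.71 and 0.73, and in the 67 cells without high spike-in RNA 0.69, 0.68 and 0.74. The 99th percentile of all pairs was 0.46. The 5 genes with the highest rho with Mki67 among all 6992 were Ube2c, Top2a, Kif11, Kif15 and Spag5, of which Kif15 is a further spindle motor and Spag5 a spindle protein.

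The promoters of 3 of these correlated genes are shown because they carry sequence letters that recur in the G2 and M phase list. Each runs 5′ to 3′ over the 250 bases before the gene start in RefSeq (GRCm38.p6). They lie at chr7:135716380-135716629 on the minus strand for Mki67, chr2:164769679-164769928 on the plus strand for Ube2c and chr11:99024190-99024439 on the minus strand for Top2a. Capitals mark the NF-Y box CCAAT and the cell cycle homology element written as TTTGAA or, in its other form searched, as TTCGAA. They also mark the site of erythroid factors with the letters AGATAA, the ETS-type site with the letters CCGGAA and the E2F-type site with the letters TTTCCCGC. Both strands were searched, so the reverse of CCAAT reads ATTGG, that of TTTGAA reads TTCAAA and that of CCGGAA reads TTCCGG. In Ube2c a CCAAT overlaps an ATTGG.
Mki67: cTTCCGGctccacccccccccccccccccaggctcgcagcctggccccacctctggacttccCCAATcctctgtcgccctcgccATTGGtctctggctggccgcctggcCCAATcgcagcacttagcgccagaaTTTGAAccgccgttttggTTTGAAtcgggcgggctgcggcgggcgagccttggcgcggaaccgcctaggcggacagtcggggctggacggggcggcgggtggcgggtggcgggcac
Ube2c: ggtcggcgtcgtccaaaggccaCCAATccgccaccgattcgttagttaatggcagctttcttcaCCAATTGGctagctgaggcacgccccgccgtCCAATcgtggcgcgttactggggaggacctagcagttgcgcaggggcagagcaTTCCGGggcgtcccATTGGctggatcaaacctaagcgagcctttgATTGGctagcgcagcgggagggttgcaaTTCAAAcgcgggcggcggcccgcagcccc
Top2a: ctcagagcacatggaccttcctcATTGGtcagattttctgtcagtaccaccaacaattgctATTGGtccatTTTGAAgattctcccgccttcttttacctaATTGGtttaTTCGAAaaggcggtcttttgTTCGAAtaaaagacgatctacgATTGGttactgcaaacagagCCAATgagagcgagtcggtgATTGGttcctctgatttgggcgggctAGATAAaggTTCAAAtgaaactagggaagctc

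NF-Y is a general promoter factor, and the cell cycle homology element is known from G2 and M phase promoters. Of the 24 list genes, 20 matched a promoter in the RefSeq table, and 18 of these held CCAAT, against 34.5% of all 27025 promoters of the same length. TTTGAA or TTCGAA stood in 9 of the 20, against 17.4% of all promoters, and all 9 also held CCAAT. Of 19 G1 and S phase promoters 10 held CCAAT and 3 held TTTCCCGC, an E2F-type site found in 0.929% of all promoters. CCAAT was held by 9 of 21 HSC transcription factor promoters, 9 of 14 erythroid promoters (64.3%) and 4 of 14 megakaryocyte promoters. TTTGAA or TTCGAA stood in 4 of the erythroid promoters (28.6%), and all 4 also held CCAAT. It stood in 2 of the G1 and S phase, 3 of the HSC transcription factor and 2 of the megakaryocyte promoters. A match describes these letters only and was not tested as a binding site.

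Correlation within the HSC lists was weaker. The median rho was 0.17 over 190 pairs of transcription factors and 0.13 over 190 pairs of surface genes, near the 0.14 of all pairs. Given genes per cell the median was 0.10 for both lists, against 0.02 for all pairs. Other settings did not put the lists above all pairs. In the 73 cells with at most 50% mitochondrial transcripts the medians were 0.05 and 0.06, against 0.07 for all pairs. With TPM rescaled without mitochondrial, ribosomal protein and globin genes they were 0.07 for both lists, against 0.08. Single pairs stood above the 99th percentile. Meis1 and Hhex had a rho of 0.51 (partial 0.48), Kit and Cd34 0.53 (partial 0.52), and Cd93 and Ptprc, which encodes CD45, 0.55 (partial 0.53). In the 73 cells with at most 50% mitochondrial transcripts these were 0.42, 0.43 and 0.46. Mecom and Hlf had a rho of 0.32. Between lists, HSC transcription factors and G2 and M phase genes had a median rho of 0.12 and a median partial rho of -0.01.

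Hmga2 stood in a group of correlated genes that were not chosen as cycle or HSC list members. Among the 5 genes with the highest rho with it were Ifitm1, an interferon-inducible membrane protein (0.71), the calcitonin-like receptor Calcrl (0.66), the actin-bundling protein Lcp1 (0.64) and the GTPase Gimap6 (0.62). The partial values were 0.71, 0.66, 0.64 and 0.62, and Hmga2 itself had a rho of 0.05 with genes per cell. In the 73 cells with at most 50% mitochondrial transcripts they were 0.61, 0.54, 0.50 and 0.46. With TPM rescaled without mitochondrial, ribosomal protein and globin genes they ran from 0.43 to 0.55. Ifitm1 was detected in 89.7% of cells with a lowest, median and highest level of 0, 252 and 2637 TPM. Ifitm1 and Lcp1 also stood among the 5 genes nearest to Hlf (0.48 and 0.47), which were led by Laptm5, a lysosomal membrane protein of blood cells (0.59). Mecom was nearest to Dusp1, a MAP kinase phosphatase (0.56), and to Samsn1 (0.51). Hmga2 and Mki67 had a rho of -0.12, and -0.27 in the 73 cells.

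**Figure D3:**
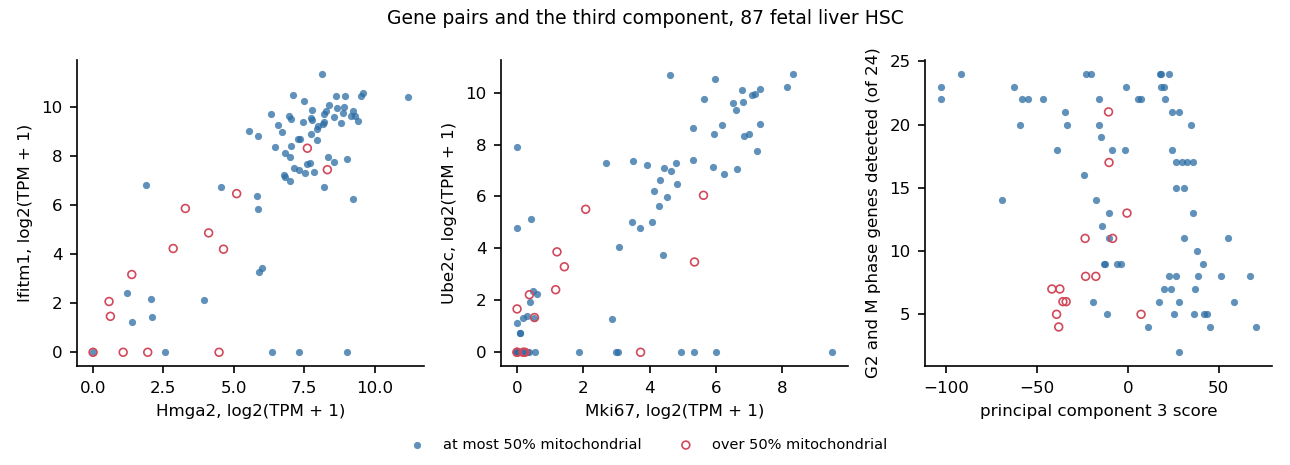
Each point is 1 of 87 fetal liver HSC, with the 14 cells over 50% mitochondrial as open red circles: left, Ifitm1 against Hmga2; middle, Ube2c against Mki67; right, number of G2 and M phase genes detected (of 24) against the score on principal component 3. Levels are log2(TPM + 1). The pairs rise together (rho 0.71 and 0.72), with many cells at low values of both genes in the middle panel, and the right panel falls with a rho of -0.32.

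Lineage genes were only loosely correlated. The median rho was 0.22 over 28 megakaryocyte pairs (partial 0.14) and 0.19 over 21 erythroid pairs (partial 0.11). Gata1 and Klf1 had a rho of 0.33, with 12 cells detecting both, and Klf1 and the blood group membrane gene Rhag 0.36. Mpo and Gstm1 had a rho of 0.43, Irf8 and Lyz2 0.40, and Flt3 and Mef2c 0.52 (partial 0.45). Gata1 and Hlf were among the lowest 1% of all pairs, with a rho of -0.25 (partial -0.30, and -0.38 in the 73 cells), and 18 cells detected both. The genes nearest to Gp9 and to Hbb-bt were no lineage genes of the lists, with Ndufa11 (0.53) first for Gp9 and Ppt1 (0.56) first for Hbb-bt. In sparse genes such values rest on few cells and are given as descriptions.

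Housekeeping lists were tightly correlated, and part of that went with gene number and mitochondrial share. The median rho was 0.44 for heat shock genes, 0.41 for nuclear genes of the respiratory chain and 0.37 for glycolysis, and the partial medians were 0.34, 0.20 and 0.21. Aldoa and Eno1, enzymes of glycolysis, had the highest rho of any pair within the lists (0.75). With the mitochondrial share, Ldha level had a rho of -0.79 and Hspa8 level of -0.75. In the 73 cells with at most 50% mitochondrial transcripts the list medians were 0.28, 0.26 and 0.20, while that of the G2 and M phase genes was 0.48. Among chromatin genes, Dnmt1 and Uhrf1, the maintenance DNA methyltransferase and its partner, had a rho of 0.56. Among immediate early genes, Jun and Dusp1 had a rho of 0.53. Among Notch pathway genes, the receptor Notch2 and the protease that cleaves it, Adam10, had a rho of 0.54 (partial 0.51).

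**Figure D4:**
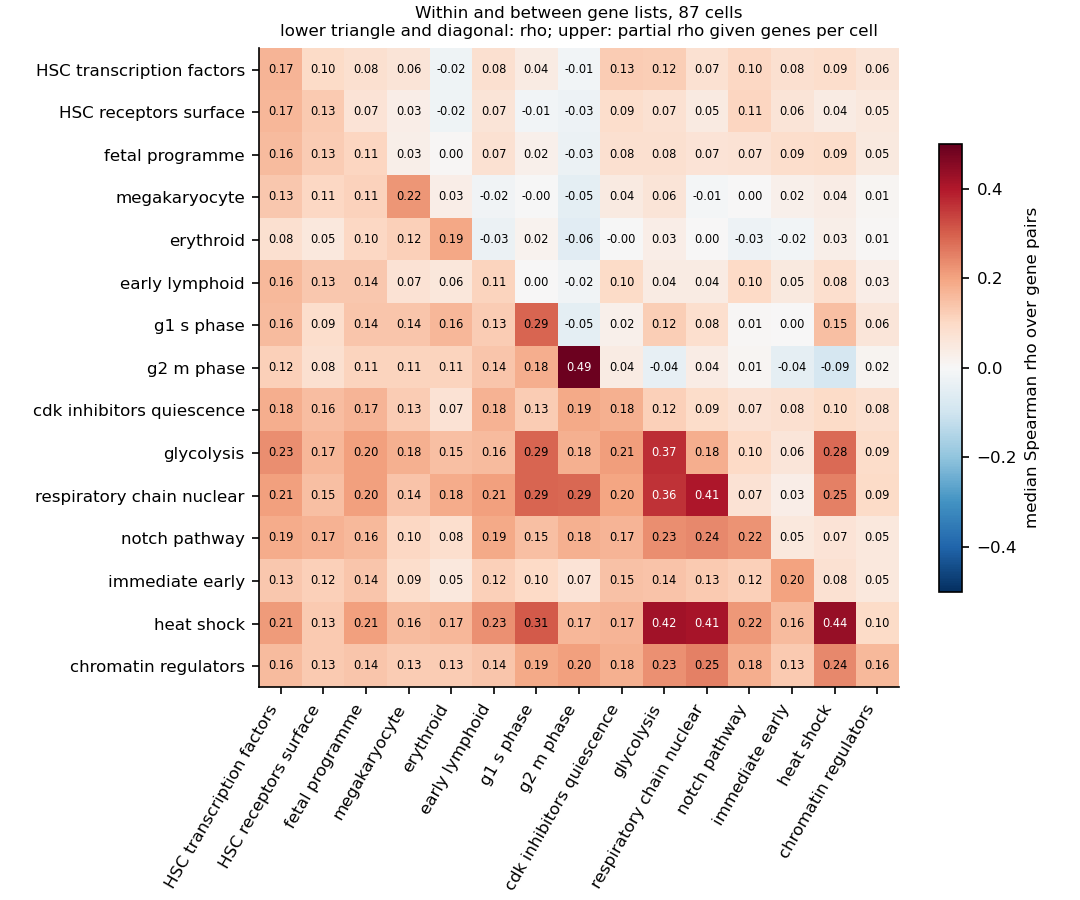
Median Spearman's rho over gene pairs within (diagonal) and between (lower triangle) 15 gene lists across 87 fetal liver HSC; the upper triangle gives the median partial rho given genes per cell. The darkest cell is the G2 and M phase list with itself (0.49), glycolysis, respiratory chain and heat shock form a block of 0.36 to 0.44, and the G2 and M phase list has partial values between -0.09 and 0.04 with every other list.

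Cell-to-cell variation was summarised by principal components over the 6992 genes. The first held 19.4% of the variance and followed genes per cell (rho 0.92) and the mitochondrial share (rho -0.73). Its positive end was led by Ppia, Mif and Uqcr10, and its negative end by Rorb, Col4a3, Atg7 and Ebf1. The second held 3.68%, and its score had a rho of -0.57 with spike-in TPM, with Atg7, Col4a3 and Exoc8 at its negative end. The third held 2.84% and hardly followed genes per cell (rho -0.13) or mitochondrial share (rho 0.02). At its positive end stood Gimap6, Ifitm1, Cd53, Txnip, Lsp1, Calcrl, Hmga2 and Ebi3. At its negative end stood Asf1b, Cdca8, Kpna2, Fbxo5, Wdr74, Ube2c, Bola1, Hist1h4d, Pbk and Gmnn. Several of these, such as Asf1b, Cdca8, Fbxo5 and Ube2c, are genes of chromatin assembly or cell division, but not all. The score on the third component had a rho of -0.32 with the number of G2 and M phase genes. For the first and second components this rho was 0.61 and -0.33, so the third was not the one that followed this number most.

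Single genes were set against the number of G2 and M phase genes per cell. With gene number taken out, the rho with the number of G2 and M phase genes was -0.38 for Txnip, an inhibitor of thioredoxin, -0.35 for Hhex, -0.33 for Meis1 and -0.33 for Myb, which are HSC transcription factors, and -0.36 for Jun. Without that step it was -0.26 for Txnip and near 0 for the others, with -0.07 for Hhex, 0.04 for Meis1, 0.02 for Myb and -0.05 for Jun. The partial value was -0.20 for Hmga2, 0.09 for Hlf and 0.18 for Mecom, so the HSC genes did not all lie on the same side.

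Among genes with a mean of at least 10 TPM that were detected in 20% to 80% of cells, the largest spread relative to genes of like mean was that of Atg7, an autophagy enzyme. Its lowest, median and highest levels were 0, 1.87 and 10456 TPM. The median was 3879 TPM in the 20 cells with high spike-in RNA and 0.753 TPM in the other 67, and for Col4a3 it was 578 and 0.187 TPM. Ndufs7, Col4a3, Atp5g2 and Kpna2 followed Atg7. Over all genes with a mean of at least 10 TPM, the smallest relative spread was that of Syt11, Dnajb14, Crebbp, a histone acetyltransferase, Samd8 and Klf13. Leaving out the 14 cells over 50% mitochondrial kept 11 of the 20 most variable genes and 3 of the 10 least variable, and brought Ube2c, Gstm1 and Il2rg into the first 20. The part of the mitochondrial share in the ranking was not tested.

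Receptors and signalling genes completed the profile. Of 18 Notch pathway genes 5 were detected in at least 50% of cells, among them Adam10 in 88.5%, Psenen in 75.9%, Notch2 in 73.6% and the nuclear effector Rbpj in 51.7%. Notch1 was detected in 19.5%, the target gene Hes1 in 45.98%, and the ligands Dll1 and Dll4 in none. Of 21 cytokine receptor genes 5 were detected in at least 50%, among them Ifngr1 (83.9%), Kit, Flt3 and Igf1r (52.9%). MHC class I was present without class II. B2m was detected in all cells and H2-K1 in 67.8%, while H2-Aa, Cd74 and Ciita were detected in none. Ifitm2, Ifitm3 and Ifitm1 were detected in 89.7% to 94.3% of cells, but Mx1, Ifit3 and Ifi44 in none.

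Set beside the other groups, FL_HSC had higher Hmga2 and a further set of higher genes. The difference in mean log2(TPM + 1) was at least 1 in favour of FL_HSC against every other group for 955 of 13239 genes (7.21%). Hmga2 led by its smallest difference, which was 5.54 against Eng_BM-HSC, and it was detected in 95.4% of FL_HSC, against 21.1% of Eng_BM-HSC, 9.52% of Eng_ES-HSC and 22.1% of ESC. Dok2, an adaptor that restrains receptor signalling in blood cells, followed with 5.02, and further genes were Hbb-bt (4.67), the zinc finger factor Klf6 (4.40), the cytokine subunit Ebi3 (4.38), the secreted glycoprotein Fstl1 (4.15) and Ppp1r15a, a subunit of the eIF2-alpha phosphatase (4.04). Ebi3 was detected in 85.1% of FL_HSC, against 26.3%, 9.52% and 0% of the other groups in the same order. Tspan6, Hmgb3, Ptpn6, Pik3r1 and Gimap6 were also among the first 15.

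**Figure D5:**
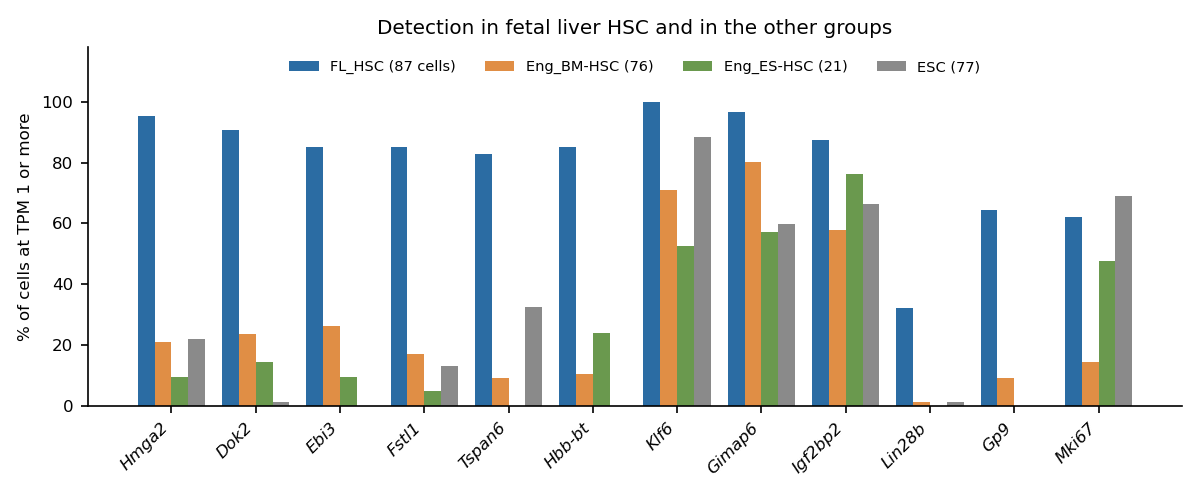
Share of cells in which each of 12 genes had at least 1 TPM, in fetal liver HSC (blue), Eng_BM-HSC (orange), Eng_ES-HSC (green) and ESC (grey). Hmga2, Dok2 and Ebi3 are detected in 85.1% to 95.4% of FL_HSC and in at most 26.3% of any other group, while Mki67 is detected in 62.1% of FL_HSC and 68.8% of ESC.

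Gene number per cell moved with these differences. The median difference over all 13239 genes was 0.39 against Eng_BM-HSC, 0.52 against Eng_ES-HSC and -0.12 against ESC. In cells with 1000 to 3000 genes, of which FL_HSC had 18 (10 of them over 50% mitochondrial), 397 genes were higher by at least 1 than in every other group. The other groups had 65 Eng_BM-HSC, 17 Eng_ES-HSC and only 6 ESC in this range. The comparison with Eng_BM-HSC in these cells covered 10852 genes. In the same cells Hmga2 had a smallest difference of 3.73 and Klf6 of 5.14. That of Ebi3 was 1.18, while Hbb-bt and Hmgb3 were below a difference of 1, with 0.83 and 0.40, and that of Ppia, 3.62 in all cells, was -1.44.

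Against Eng_BM-HSC, 29.1% of genes were higher in FL_HSC by at least 1 and 1.84% were lower. Of 24 G2 and M phase genes 23 were higher, with Top2a by 4.12, and 8 in the cells with 1000 to 3000 genes, where 5.34% of all genes were higher. Of 11 fetal programme genes 9 were higher, with Hmga1 by 5.12, and 3 in those cells. Of 22 HSC transcription factors 8 were higher and none lower, with Mecom by 2.93, Hhex by 2.42 and Runx1 by 1.86, while Lmo2, Myb and Hlf had differences of -0.35, -0.05 and -0.24. In the cells with 1000 to 3000 genes the difference was 1.43 for Mecom, -2.30 for Hlf and, against 0.28 in all kept cells, -1.96 for Angpt1. Of 15 megakaryocyte genes 5 were higher, near the share of all genes, with Gp9 by 3.33. Of 12 antigen presentation genes 8 were lower and none higher, with H2-K1 at a difference of -4.45.

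Against Eng_ES-HSC, the differences of HSC genes were 4.87 for Hhex, 4.86 for Lmo2, 3.90 for Mecom and 3.35 for Hlf. That of Hmga1 was 5.84. Kept cells had a median of 4233 genes in FL_HSC and 1609 in Eng_ES-HSC. In the cells limited by gene number, as used against Eng_BM-HSC, the difference was 2.47 for Mecom, 1.69 for Hlf and 2.87 for Hmga1. The part of gene number in these differences was not tested. In the other direction, 2.26% of genes were lower in FL_HSC by at least 1 over all kept cells. Of 14 granulocyte genes 9 were lower, with S100a8 at a difference of -7.86. Against ESC, 10.7% of genes were higher in FL_HSC and 17.7% lower. Of 22 HSC transcription factors 17 were higher and 1 lower, with Lmo2 by 6.36 and Fli1 by 6.16. Of 24 G2 and M phase genes none was higher and 11 were lower, with Ube2c at a difference of -2.54. Of the fetal programme genes 6 were higher and 2 lower, Igf2bp1 (-2.60) and Lin28a (-1.40).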

How the data were processed

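The deposited table holds 22073 rows (21970 mouse genes, 92 spike-ins and 11 cassettes) by single cell, as natural log values of TPM + 1; the base was read from the values and the authors' scaling is not given in the sources used here. Per the submitters' processing notes, the tools were HISAT 0.1.6 and Salmon 0.3.2 and the build GRCm38; their roles are not given. Values were turned back into TPM, which keeps no depth. Cells with at least 1000 genes at a TPM of 1 or more were kept. Shares of cells, TPM ranges, Spearman's rho, partial rho given genes per cell, principal components of log2(TPM + 1) and differences of group means (pseudocount 1, called at a difference of 1 or more) were computed with python 3.11.15, numpy 2.4.6, pandas 2.3.3 and scipy 1.17.1, and figures with matplotlib 3.10.9. The code was tested on simulated data. Promoters came from RefSeq (GRCm38.p6).

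The members and lists were chosen with earlier results of these data known. The text names members of the 29 gene lists, the 20 highest genes, the 20 most and 10 least variable genes, the 5 nearest partners of 6 anchor genes, the 10 genes at each end of 3 components, and the 15 genes with the largest smallest difference to the other groups; some of these genes are not reported here. Replicate numbers only name cells, and no p-value was computed. Alternatives covered detection level, cell and gene filters, pseudocount, correlation measure and scaling.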

Additional observations from a re-analysis of the deposited data

Results flagged for a closer look

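Spike-in RNA, which no main comparison between groups uses, was detected at a summed TPM of 1 or more in 92 of the 94 FL_HSC cells. Its lowest, median and highest summed levels were 0, 47.4 and 20865 TPM, and 20 cells held 1000 TPM or more. A limit of 3.19% of cells would apply only to a count of 0, which this was not.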

How the results depend on the processing

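Over 19 alternatives (16 planned and 3 chosen after seeing the data), 370 of 404 compared values stayed within the margin set for them, 33 moved and 1 reversed. The margin was the SD over gene pairs for a median rho and the SD over cells for level differences and genes per cell. For shares of cells it was the 95% interval, and for counts a set ratio. Such margins are wide. The median rho of the chromatin genes, 0.16, was 0.04 given genes per cell and stayed within its margin, an SD of 0.13. The share of FL_HSC with marks of 2 or more lineages, 96.6%, was 85.7% with detection at a TPM of 10 or more, 78.2% with 3 members per list, and 80.5% without members shared with the HSC lists or detected in at least 80% of cells, an alternative added later. The median rho of the G2 and M phase genes, 0.49, was 0.31 given genes per cell. The 955 genes higher than in each other group became 1549 with a pseudocount of 0.1, 322 with a pseudocount of 10, 1461 with the log2 of mean TPM and 397 in cells with 1000 to 3000 genes. In those cells the smallest difference of Ppia, 3.62, was -1.44. The cause was not tested. Without the 20 FL_HSC cells with spike-in TPM of 1000 or more, also an added alternative, the lineage share was 95.5%, the G2 and M phase rho 0.50 and the count of higher genes 989. Among the other 345 values, 25 moved. No paired analysis was possible because replicate numbers only name cells and no test was run. TPM carries no depth, so a gene detected in no cell may lie below the detection limit.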

Other observations

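Genes of the Y chromosome were looked at after their values were seen. At least 1 of 4 such genes was detected in 45 of 87 FL_HSC (51.7%) and at least 2 in 13 cells. Among the transgene and plasmid cassettes in the table, YFP, eGFP and the ampicillin resistance gene were each detected in 1 FL_HSC cell, at up to 20.2, 38.6 and 49.1 TPM.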
